A study of Mus musculus with 13 samples.

Results

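The 77 genes described here encode the proteins of the cytosolic ribosome, 46 of the large subunit and 31 of the small one. They were chosen by symbol among the 20270 genes of the deposited tables: Rpl or Rps followed by a digit, and Rplp0, Rplp1, Rplp2 and Rpsa. Ribosomal protein kinases (9 symbols) and annotated pseudogenes (5 symbols) were left out, and 9 relatives were kept apart: 6 paralogs such as Rpl3l, 2 retrogenes and 1 binding protein. All 77 genes passed the filter on low counts, as 15315 of the 20270 genes did.

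Lung mRNA was sequenced in 13 libraries, each taken here as 1 mouse. WT mice, by the methods, were male C57BL/6J aged 13 weeks when bought, and CB1R KO mice, on the same background, lack Cnr1, the gene of the cannabinoid receptor CB1R, in every cell (Cnr1-/-). Their age and sex are not given in the sources used here. Control mice (n = 4) were WT mice without bleomycin, and by the methods control groups received sterile saline, the vehicle. WT bleomycin mice (n = 5) and CB1R KO bleomycin mice (n = 4) had received bleomycin once by aspiration from the oropharynx (1 U per kg). Bleomycin injures the lung, which is followed by fibrosis. The lungs of both bleomycin groups were taken on day 14. Uninjured CB1R KO lungs were not analysed here, so no contrast isolates the genotype without injury. By the methods, RNA came from the lower right lobe, and each library is named here by the number in its label. WT bleomycin 4 and 4-B2 share the number 4. The labels do not say what B2 marks, nor whether these are separate mice.

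Each mature ribosome holds a single copy of most of its proteins, so these are made in near equal numbers. Their mRNAs are among the most abundant in growing cells. Many of these mRNAs begin with a run of pyrimidines called a terminal oligopyrimidine (TOP) tract, through which mTORC1, a kinase that senses nutrients and growth factors, controls their translation. Unassembled Rpl5 and Rpl11 bind Mdm2 and so can stabilise p53.

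RefSeq start-site windows on mouse build GRCm38.p6 were found for 57 of the 77 genes. A TOP-like tract, here C followed by 4 or more C or T on the transcribed strand, began exactly at an annotated start in 13 of these 57 genes (22.8%) and within 3 bases of one in 23 (40.4%). The same letters were at the start in 2.84% and within 3 bases of it in 14.6% of the 12064 tested genes with a window. CCGGAAG, searched on both strands of the 250 bases before the start, was present in 18 genes (31.6%, against 13.7% of tested genes). A match is only a description of the letters. The windows below run from 10 bases before to 20 bases from the annotated start. They are shown for genes whose values are given later. The first 6 have a tract within 3 bases of the start and the last 2 do not. Capitals mark the tract.
Rpl15 (chr14:18270967-18270996, minus strand): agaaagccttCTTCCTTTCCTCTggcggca
Rpl7a (chr2:26910797-26910826, plus strand): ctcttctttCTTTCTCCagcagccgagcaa
Rps6 (chr4:86857348-86857377, minus strand): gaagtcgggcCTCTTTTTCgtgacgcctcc
Rpl14 (chr9:120571507-120571536, plus strand): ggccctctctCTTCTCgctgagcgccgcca
Rps27 (chr3:90213629-90213658, minus strand): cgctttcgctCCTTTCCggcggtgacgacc
Rpl13a (chr7:45128726-45128755, minus strand): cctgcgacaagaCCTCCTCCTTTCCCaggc
Rplp0 (chr5:115559457-115559486, plus strand): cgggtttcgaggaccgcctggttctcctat
Rps2 (chr17:24720053-24720082, plus strand): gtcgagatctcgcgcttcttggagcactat

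Of the 13 libraries, 12 held between 14615904 and 16662580 estimated counts, and CB1R KO 11 held 53463884. Mitochondrially encoded genes took 3.07% to 3.45% of counts in control, 2.15% to 2.93% in WT bleomycin and 2.78% to 3.02% in CB1R KO 8, 9 and 10, but 1.37% in CB1R KO 11. Cnr1 itself had 1.62 to 4.18 CPM (counts in a library scaled to a common total) in control, 3.42 to 7.06 in WT bleomycin and 2.47 to 5.64 in the libraries labelled CB1R KO. The tables do not say which part of Cnr1 the reads came from, so its counts do not check the genotype and the groups rest on the labels.

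CB1R KO 11 stood apart in the ribosomal protein genes, in both directions at once. For the 77 genes CPM are scaled by edgeR's TMM factors as well. Compared with the mean of the other CB1R KO libraries, 11 of the 77 genes were lower by more than 0.5 on the log2 scale and 4 were higher. Among the other 12 libraries, no more than 5 genes lay that far from the rest of their group. The SD of these differences over the 77 genes was 0.496 in CB1R KO 11 and 0.044 to 0.2 elsewhere. Over the 3837 genes with a mean log2 CPM above 6 it was 0.239 in CB1R KO 11, within the range of 0.136 to 0.247 of the other libraries.

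Rps16, a small-subunit protein, had 89.4, 88.2 and 103 CPM in CB1R KO 8, 9 and 10 and 29.2 CPM in CB1R KO 11. Rpl10, the large-subunit protein that joins last and is needed before the subunits can pair, had 224, 216 and 223 CPM in CB1R KO 8, 9 and 10 and 80.5 CPM in CB1R KO 11. Rps9, a small-subunit protein, went the other way, with 407, 416 and 472 CPM against 657. CB1R KO 11 held the lowest of the 13 values for 26 genes and the highest for 19, while 9.06% and 10.4% of all tested genes had their lowest and highest value there. Rpl10-ps3, an annotated pseudogene of Rpl10 outside the 77, had 291 to 338 CPM in CB1R KO 8, 9 and 10 and 407 in CB1R KO 11. Its level was 315 to 402 CPM in control and 322 to 345 in WT bleomycin. The part of depth, of the lower mitochondrial share and of shared reads in this split was not tested. Counts and fold changes of ribosomal protein genes in the CB1R KO group are therefore given with and without CB1R KO 11.

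**Figure D1:**
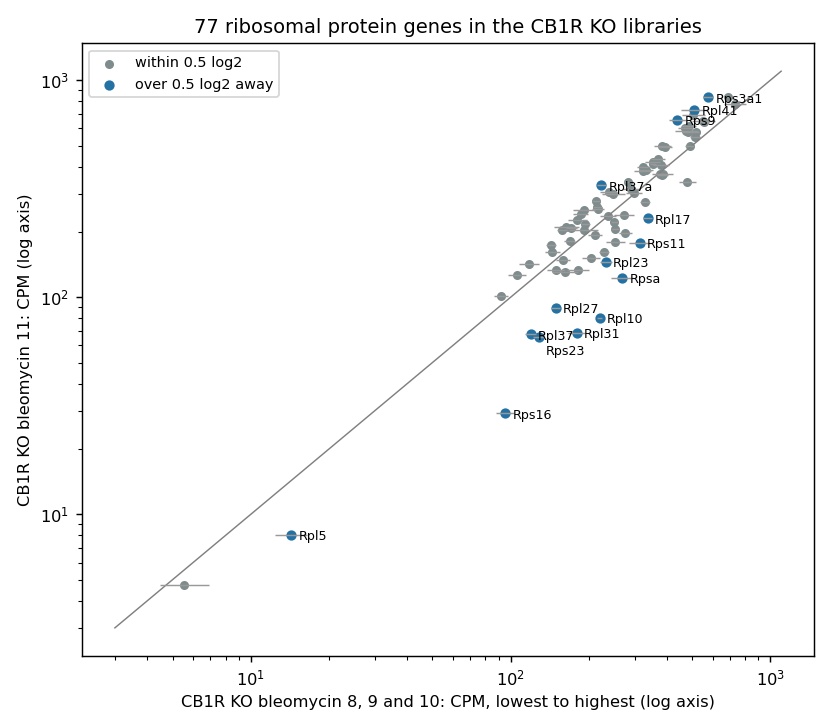
CPM of the 77 genes in CB1R KO 11 (vertical, log axis) against the lowest to highest CPM in CB1R KO 8, 9 and 10 (horizontal bars with a point at their geometric middle, log axis), with the line of equal values. The 15 genes named differ by more than 0.5 on the log2 scale, 11 below the line and 4 above it.

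Ribosomal protein mRNA was abundant in every library. The 77 genes held 2.24% to 2.36% of counts in control, 2.4% to 2.77% in WT bleomycin and 2.13% to 2.45% in CB1R KO bleomycin. In TPM, a level scaled for transcript length, their median was 885.6, against 14.36 over all tested genes, and 32 of them exceeded 1000. Levels were unequal: the 10 highest held 27.14% of the summed TPM. Rpl13a, a large-subunit protein that can be released to silence inflammatory mRNAs, was the highest, with 2363 ± 165 TPM in control (SD, n = 4), 2861 ± 293 in WT bleomycin (n = 5) and 2450 ± 180 in CB1R KO bleomycin (n = 4). Rpl41, the shortest ribosomal protein, and Rplp1, of the acidic stalk, followed at medians of 2489 and 2383 TPM over all libraries. The medians of these 3 genes differed by less than the SD of Rpl13a within each group.

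At the other end were Rpl12, a protein at the base of the stalk, at a median of 7.81 TPM, Rpl5, which carries 5S RNA into the large subunit, at 14.22 TPM, and Rps20 at 64.9 TPM. Both genes share sequence with others: 52.0% of the 31-base stretches of the transcripts of Rpl12 and 86.4% of those of Rpl5 also occur in transcripts of other genes in GENCODE M21, and 2.1% and 41.7% in those of other protein-coding genes. Over all 77 genes the median share with any gene was 46.1%, and 34 genes shared 50% or more. Counts of such genes depend on how the quantifier divided the reads, and are uncertain to that extent. The share did not track the spread between libraries, with a Spearman rho of -0.12 and a Pearson r of -0.01 between it and the SD within groups across the 77 genes. Reads divided wrongly but alike in every library would not raise that SD, so these values do not bear on the levels.

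Summed over the 77 genes, control libraries 3, 21, 24 and 26 held 69210, 66373, 66257 and 65344 TPM. WT bleomycin libraries 4, 2, 5, 4-B2 and 7 held 72746, 71944, 74457, 79357 and 78400 TPM. All WT bleomycin libraries lay above all control libraries. CB1R KO libraries 8, 9, 10 and 11 held 65822, 65194, 72475 and 68515 TPM, so that 8 and 11 lay within the range of the controls, 9 just below it, and 10 between the WT bleomycin libraries 2 and 4. The large-subunit sum was 36280 ± 656 TPM in control, 41860 ± 1961 in WT bleomycin and 37650 ± 1891 in CB1R KO bleomycin, and the small-subunit sum was 30520 ± 1028, 33520 ± 1397 and 30350 ± 1433 TPM (SD). In bulk lung, more RNA per cell and more cells rich in it cannot be told apart.

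**Figure D2:**
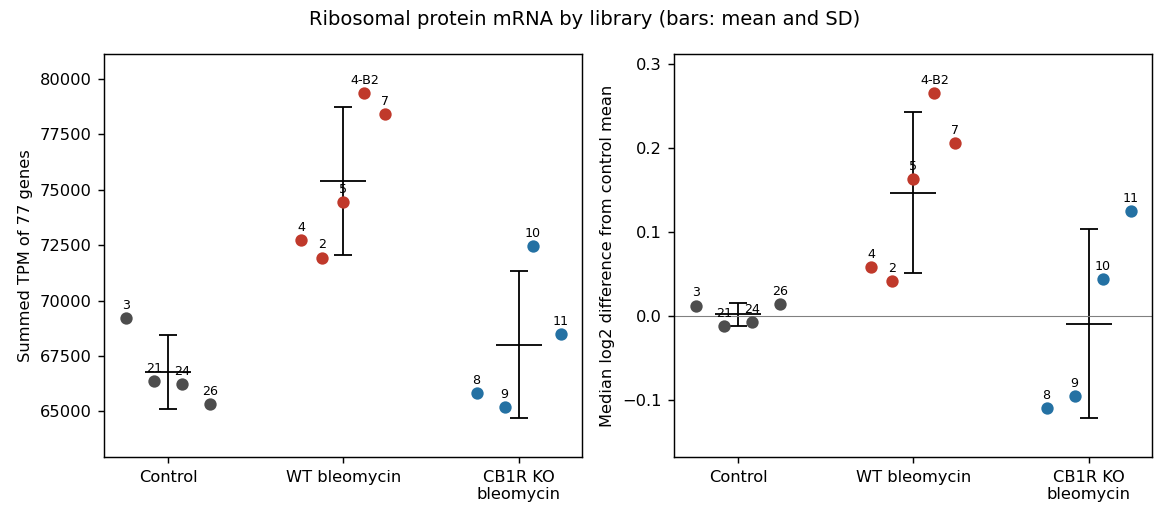
Summed TPM of the 77 genes (left) and the median over the 77 genes of log2 CPM minus the control mean (right) in each of the 13 libraries, with group mean and SD. All 5 WT bleomycin libraries lie above the 4 control libraries on both axes, from 71944 to 79357 TPM against 65344 to 69210, and of the CB1R KO libraries 8 and 9 lie at -0.11 and -0.10 on the right axis, below every control, and 10 and 11 at 0.04 and 0.12, above every control.

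WT bleomycin against control asked how the lung's mRNAs stood on day 14 after injury. Ribosomal protein mRNAs were slightly higher in WT bleomycin: 26 of the 77 genes rose and 1 fell, where 25.0% of all tested genes rose and 23.9% fell. A call needed an adjusted p under 0.05 by the quasi-likelihood test of edgeR, with Benjamini-Hochberg adjustment over all 15315 genes. The log2 fold change was above 0 for 70 genes, with a median of 0.13, against -0.01 over all genes, and a range of -0.21 to 0.73. In 31 genes every WT bleomycin library lay above every control library (21.5% of all genes), and in none did every one lie below (18.8% of all genes). The share that rose was 33.8% and the share that fell 1.3%, so that the members stood out from the background more by the lack of falls than by the number of rises. Of the large subunit 18 of 46 genes rose and none fell, and of the small subunit 8 of 31 rose and 1 fell.

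The median standard error of a single gene was 0.08. The rise was uneven among libraries. The median log2 difference of the 77 genes from the control mean was 0.06 and 0.04 in WT bleomycin 4 and 2, 0.16 in 5, and 0.27 and 0.21 in 4-B2 and 7. Libraries 4-B2 and 7 have titles in another letter style than the other 3, as does control 26, whose median was 0.01, and the labels do not say what the style marks. With lower-case titles only, 7 genes rose and 1 fell (19.7% of all genes rose) and the median was 0.07. With the title style as a term in the fit, 23 rose and 2 fell (24.9% of all genes rose). Without CB1R KO 11, which enters this comparison only through the shared estimate of spread, 33 rose and 1 fell (26.1% of all genes rose).

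The stalk of the large subunit, which calls elongation factors to the ribosome, is built on Rplp0. Its level was 671, 680, 624 and 669 CPM in control and 827, 831, 885, 994 and 916 CPM in WT bleomycin. The groups did not overlap and Rplp0 had the lowest p of the 77 genes, with a log2 fold change of 0.43 (standard error 0.07, adjusted p = 0.000277 from edgeR). Its partner Rplp1 rose by less, 0.17 (0.07, adjusted p = 0.0441), with overlapping groups, and lost the call without any 1 of 7 libraries (the controls and WT bleomycin 5, 4-B2 and 7). The second partner, Rplp2, stood at 0.07 (0.11, adjusted p = 0.62).

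Rps2, at the mRNA entry of the small subunit, had the next lowest p. It was counted at 390, 423, 381 and 390 CPM in control and at 508, 556, 589, 693 and 609 CPM in WT bleomycin. The lowest WT bleomycin library lay above the highest control library, and the log2 fold change was 0.58 (0.10, adjusted p = 0.000356). Other small-subunit proteins of known roles moved less. Rps3, at the entry tunnel and also active in DNA repair, was at 0.18 (0.11, adjusted p = 0.18) although its groups did not overlap. Rps6, the substrate of S6 kinase downstream of mTORC1, had 499, 488, 485 and 499 CPM in control and 484, 507, 500, 596 and 544 in WT bleomycin, which overlapped (0.09, standard error 0.10, adjusted p = 0.45). Rps19, mutated in Diamond-Blackfan anaemia, stood at 0.14 (0.10, adjusted p = 0.25). Rpsa, also known as the laminin receptor, had no overlap at 0.32 (0.17, adjusted p = 0.14) and passed without CB1R KO 11 (0.33, standard error 0.07, adjusted p = 0.00135).

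In the large subunit, Rpl15, a core protein, had 159, 176, 172 and 176 CPM in control and 216, 209, 202, 229 and 227 CPM in WT bleomycin, with no overlap and a log2 fold change of 0.34 (0.07, adjusted p = 0.0014). Rpl36a rose alike, 0.34 (0.07, adjusted p = 0.00132), and Rpl7a by 0.29 (0.07, adjusted p = 0.00202). These 3 genes, Rplp0 and Rps2 stayed past the threshold in all 27 alternatives of the processing. As the printed windows show, Rpl15 and Rpl7a carry a TOP-like tract within 3 bases of the annotated start and Rplp0 and Rps2 do not. In both Rplp0 and Rps2 a run of that kind begins farther on in the window, so another start site could change this reading. Of the 23 genes with a tract within 3 bases of the start 8 rose and 1 fell, with a median of 0.17. Of the 34 without one 13 rose and 0 fell, with a median of 0.13. Over all tested genes 25.0% rose and 23.9% fell. The difference between these sets was not tested.

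Rpl41 had 433, 456, 414 and 454 CPM in control and 539, 553, 667, 722 and 675 in WT bleomycin, without overlap (0.52, standard error 0.13, adjusted p = 0.00364). The largest fold change belonged to Rpl12, 0.73 (0.19, adjusted p = 0.00608), which was counted at only 3.21 to 5.12 CPM in control and 5.51 to 8.56 in WT bleomycin. Rpl13a rose by 0.29 (0.09, adjusted p = 0.0192), a call lost without control 24 (adjusted p = 0.058) or control 26 (0.053). Rpl11 and Rpl5, the Mdm2-binding pair, differed: Rpl11 rose by 0.24 (0.07, adjusted p = 0.0135), and Rpl5 was at 0.03 (0.20, adjusted p = 0.93), a standard error too wide to compare it with Rpl11. Rpl10 was at 0.06 (0.23, adjusted p = 0.85), and Rpl38, which takes part in translating homeobox mRNAs, at 0.18 (0.08, adjusted p = 0.057) with no overlap.

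Rps27, a zinc-finger protein of the small subunit whose start-site window opens with a TOP-like tract, was the gene that fell. It had 325, 288, 316 and 314 CPM in control and 264, 255, 245, 282 and 292 CPM in WT bleomycin. WT bleomycin 7 lay above the lowest control, the log2 fold change was -0.21 (0.08, adjusted p = 0.03), and the call was lost without any 1 of 6 libraries (control 3, 24 and 26 and WT bleomycin 4, 2 and 5, adjusted p up to 0.0794). Of its 31-base stretches, 50.1% occur in transcripts of other genes. The retrogene Rps27rt was counted at 0 to 9.57 CPM. Rpl21 had the next lowest p on that side, with -0.13 (0.05, adjusted p = 0.0506).

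Several ribosomal proteins do not carry an Rpl or Rps symbol or are fused to ubiquitin, and they were followed as well. Rps27a, made as a ubiquitin fusion, rose by 0.25 (0.08, adjusted p = 0.0169). Rack1, a scaffold on the small subunit that binds protein kinase C, rose from 421 ± 13.1 CPM to 519 ± 30.7 CPM (SD), 0.30 (0.07, adjusted p = 0.00308). Fau, fused to a ubiquitin-like protein, was at 0.05 (0.07, adjusted p = 0.55).

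Of the relatives kept apart, 7 of 9 were tested. Rps27l, a paralog of Rps27 and a known p53 target, had 33.9, 43.1, 41.4 and 44.6 CPM in control and 68.4, 76.2, 71.4, 79.1 and 77.9 in WT bleomycin. That is a log2 fold change of 0.87 (0.08, adjusted p = 8.97e-07), on the opposite side of 0 from Rps27. Rpl7l1 rose by 0.32 (0.06), Rpl36al by 0.30 (0.07) and Rps19bp1, a binding protein, by 0.28 (0.11), with adjusted p-values of 0.000361, 0.00176 and 0.0463. The call of Rps19bp1 was lost without any 1 of 10 libraries, all but WT bleomycin 4 and 7 and CB1R KO 11, with an adjusted p up to 0.113. Rpl22l1 was at 0.33 (0.14, adjusted p = 0.061). Rpl3l, the paralog of heart and skeletal muscle, fell by 1.79 on the log2 scale (0.39, adjusted p = 0.00155) from 0.943 ± 0.3 to 0.27 ± 0.097 CPM, while all 8 tested of 11 striated muscle markers fell too. Rps27rt was at -0.41 (0.62, adjusted p = 0.61). Rpl39l and Rps23rg1 were too low to be tested.

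**Figure D3:**
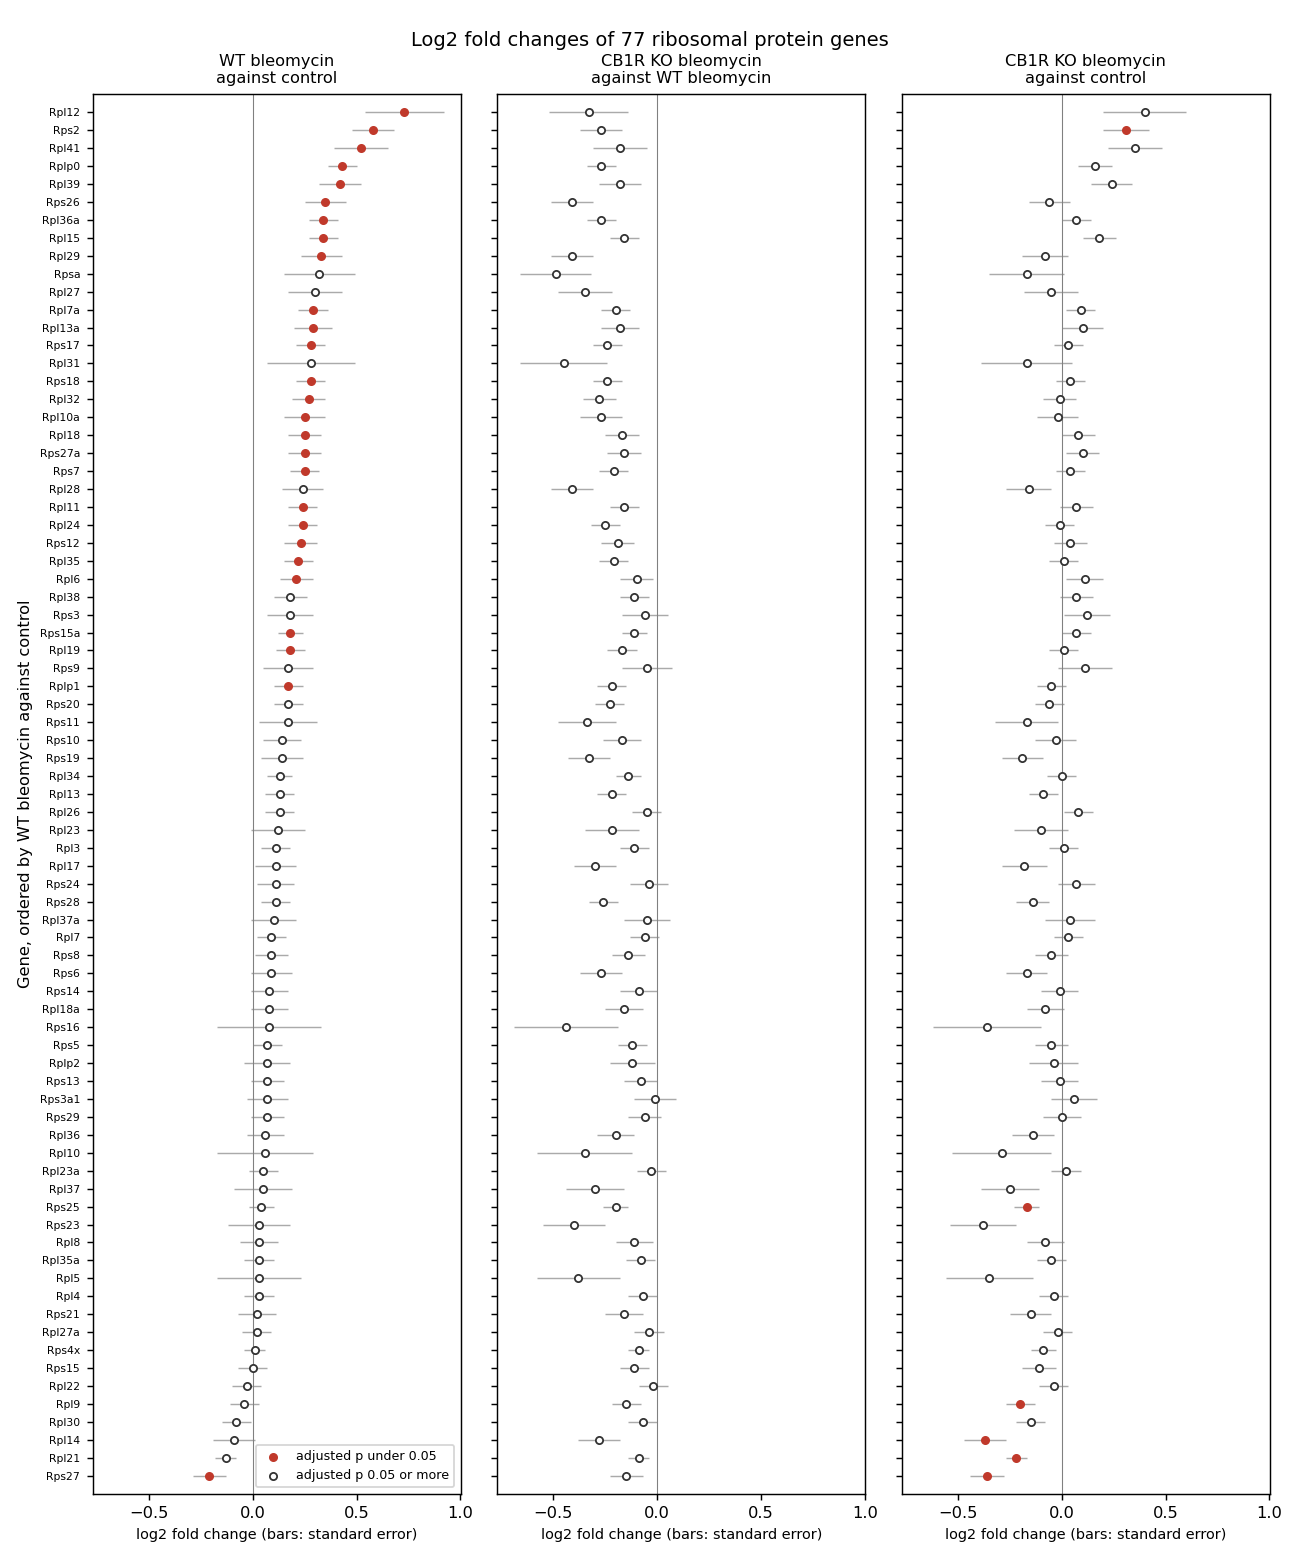
Log2 fold changes of the 77 genes with standard errors in the 3 comparisons, in the order of WT bleomycin against control (filled red points have an adjusted p under 0.05). In the first panel 26 genes lie right of 0 and 1 left of it among the filled points, in the middle panel all 77 genes lie left of 0 and none is filled, and in the third 1 filled point lies right and 5 lie left.

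CB1R KO bleomycin against WT bleomycin asked how injured lungs differed with the loss of CB1R. All 77 genes had a fitted value below 0 in CB1R KO, with a median log2 fold change of -0.18 (0.00 over all genes) and a range of -0.49 to -0.01, yet none passed the adjusted threshold in edgeR (0.359% of all genes were called higher and 0.62% lower). At an unadjusted p under 0.05, 37 genes were lower and none higher, against 9.08% and 7.95% of all genes. Every CB1R KO library lay below every WT bleomycin library in 10 genes (3.1% of all genes), and in 21 (5.23% of all genes) without CB1R KO 11. Without CB1R KO 11 all 77 values were again below 0, with a median of -0.19, none was called, and 61 had an unadjusted p under 0.05 (9.21% of all genes). DESeq2 called 14 lower and none higher (1.88% of all genes were called lower), among them Rplp0, Rplp1, Rpl36a, Rps19 and Rps25. Without CB1R KO 10, edgeR called 13 lower (2.53% of all genes), and without WT bleomycin 4 it called 1 (0.891% of all genes). With lower-case titles only, which leaves out WT bleomycin 4-B2 and 7, 67 of 77 values were below 0, none was called, and the median was -0.11. The comparison shares its WT bleomycin libraries with the one before, so the directions of both are not independent.

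Rplp0 had 664, 699, 808 and 776 CPM in CB1R KO 8, 9, 10 and 11, all below the WT bleomycin libraries given above. Its log2 fold change was -0.27 (0.07, adjusted p = 0.0859), and -0.30 (0.08, adjusted p = 0.103) without CB1R KO 11. Rpl36a, with 89.8, 86.6, 97.7 and 102 CPM in CB1R KO and 103, 102, 118, 126 and 117 in WT bleomycin, differed by -0.27 (0.07, adjusted p = 0.0806), with the highest CB1R KO library just under the lowest of WT bleomycin, and by -0.31 (0.07, adjusted p = 0.0893) without CB1R KO 11. Rps2 had 430, 428, 525 and 584 CPM in CB1R KO and overlapped WT bleomycin (-0.27, standard error 0.10, adjusted p = 0.208, and -0.36 with an adjusted p of 0.11 without CB1R KO 11). Rps25, needed for translation from certain viral entry sites, had no overlap at -0.20 (0.06, adjusted p = 0.101), and was at -0.16 (0.05, adjusted p = 0.174) without CB1R KO 11. Rack1 differed by -0.23 (0.07, adjusted p = 0.141), and by -0.19 (0.07, adjusted p = 0.212) without CB1R KO 11. Rpsa, with the most negative value of the 77, moved from -0.49 (0.17, adjusted p = 0.169) to -0.28 (0.07, adjusted p = 0.101) without CB1R KO 11, where it was counted at 123 CPM beside 259, 244 and 297 in the other CB1R KO libraries. Rpl10 moved from -0.35 (0.23, adjusted p = 0.468) to -0.09 (0.12, adjusted p = 0.73) without that library.

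**Figure D4:**
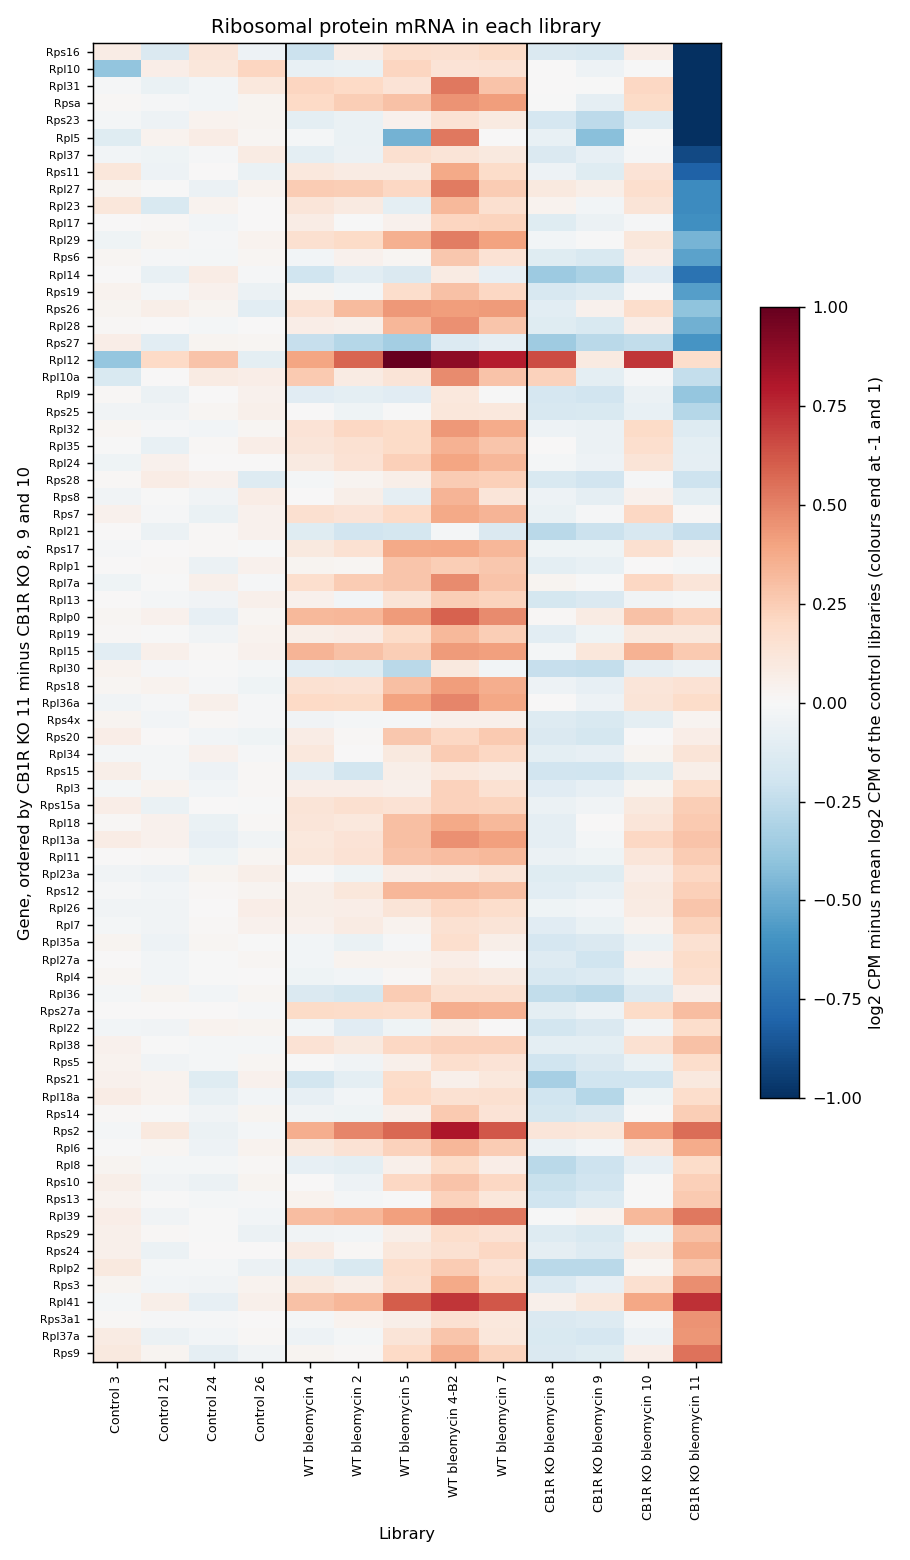
Log2 CPM of the 77 genes (rows) in the 13 libraries (columns) minus the mean of the control libraries, on a colour scale that ends at -1 and 1, with rows ordered by CB1R KO 11 minus the other CB1R KO libraries. WT bleomycin columns are mostly red, most of all 4-B2, CB1R KO 8 and 9 mostly pale blue, and CB1R KO 11 runs from deep blue at Rps16 to red at Rps9.

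CB1R KO bleomycin against control combines genotype and injury. Here the 77 genes were split around 0, 31 above and 46 below, with a median of -0.03 (-0.01 over all genes). Only 1 rose and 5 fell, while 19.0% of all genes rose and 16.3% fell. Every CB1R KO library lay above every control library in 1 gene (17.7% of all genes) and below in 7 (15.8% of all genes). Without CB1R KO 11 there were 2 such genes above (19.7% of all genes) and 17 below (18.2% of all genes). Without CB1R KO 11 none rose and 4 fell (16.5% and 12.4% of all genes), with a median of -0.05.

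The 5 that fell were Rps27, Rpl21, Rpl14, Rps25 and Rpl9. Rps27 had 243, 258, 261 and 206 CPM in CB1R KO, all below the controls, at -0.36 (0.08, adjusted p = 0.00323), and at -0.28 (0.07, adjusted p = 0.00843) without CB1R KO 11. Rpl21, a large-subunit protein, had 436, 417, 439 and 446 CPM in control and 361, 375, 389 and 369 in CB1R KO, at -0.22 (0.05, adjusted p = 0.00695) with all libraries and -0.21 (0.06, adjusted p = 0.0169) without CB1R KO 11. Both genes thus lay below control in each bleomycin group by the fitted values, with Rpl21 not past the threshold in WT bleomycin.

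Rpl14 had 300, 284, 315 and 296 CPM in control and 233, 240, 276 and 180 in CB1R KO, at -0.37 (0.10, adjusted p = 0.0132), and at -0.25 (0.08, adjusted p = 0.0255) without CB1R KO 11. Rps25 and Rpl9 stood just past the threshold at -0.17 (0.06, adjusted p = 0.0441) and -0.20 (0.07, adjusted p = 0.0482). Either call was lost without any 1 of 11 of the 13 libraries, all but WT bleomycin 2 and CB1R KO 10 for Rps25 and all but WT bleomycin 4-B2 and CB1R KO 10 for Rpl9. The adjusted p then ran from 0.0521 to 0.134 for Rps25 and from 0.0556 to 0.149 for Rpl9, highest without CB1R KO 11, where the values were -0.12 and -0.13. The gene that rose, Rps2, was at 0.31 (0.11, adjusted p = 0.0359), and at 0.23 (0.10, adjusted p = 0.108) without CB1R KO 11. Its call was lost as well without control 3, 24 or 26 or CB1R KO 10. Rps21 passed only without CB1R KO 11 (-0.24, standard error 0.08, adjusted p = 0.0499) and was named after its values were seen. Rps27l rose by 0.67 (0.08, adjusted p = 2.99e-05), and by 0.70 without CB1R KO 11. Rpl7l1 rose by 0.22 (0.06, adjusted p = 0.0101; 0.26 without CB1R KO 11), Rps19bp1 by 0.33 (0.11, adjusted p = 0.0374; 0.38 without it) and Rpl22l1 by 0.40 (0.15, adjusted p = 0.0434), the last with 0.21 and an adjusted p of 0.152 without CB1R KO 11. The call of Rps19bp1 was lost without any 1 of 7 libraries (adjusted p up to 0.0918), the controls and CB1R KO 8, 9 and 10, and that of Rpl22l1 without any 1 of 8, the controls, WT bleomycin 4 and 2 and CB1R KO 10 and 11.

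The rest of the translation machinery was set beside the 77 genes by counts. In WT bleomycin against control, 33 of 78 mitochondrial ribosomal protein genes rose and 3 fell (median 0.23). Of 40 translation factors 22 rose and 1 fell (0.21), and of 69 ribosome biogenesis factors 31 rose and 3 fell (0.16). Over all tested genes 25.0% rose and 23.9% fell. Among translation factors, Eif4a1, the helicase that opens mRNA for initiation, rose by 0.73 (0.09, adjusted p = 2.18e-05) and its paralog Eif4a2 fell by 0.40 on the log2 scale (0.07, adjusted p = 0.000357). Eif2s1, the subunit of initiation factor 2 that stress kinases phosphorylate, rose by 0.65 (0.07, adjusted p = 2.9e-06). Eef1a1, the elongation factor that brings transfer RNA and the most abundant of the list, was at 0.00 (0.07, adjusted p = 0.97) and was named after its values were seen. Among biogenesis factors, Tsr1, of the maturing small subunit, rose by 0.59 (0.07, adjusted p = 6.9e-06) and Fbl, the methyltransferase fibrillarin, by 0.50 (0.06, adjusted p = 1.92e-05), while Sbds, which releases a factor from the new large subunit, fell by 0.42 on the log2 scale (0.07, adjusted p = 0.000263).

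In CB1R KO bleomycin against control, of the mitochondrial ribosomal proteins 17 rose and 1 fell (median 0.14). Of the translation factors 10 rose and 2 fell (0.09), and of the biogenesis factors 18 and 3 (0.12). The shares that rose were 21.8%, 25.0% and 26.1%, against 19.0% of all tested genes. The shares that fell were 1.3%, 5.0% and 4.3%, against 16.3%. Without CB1R KO 11 the counts were 13 and 2, 8 and 1, and 14 and 2 (16.5% and 12.4% of all genes). In CB1R KO against WT bleomycin none of these genes was called with or without CB1R KO 11, with medians of -0.07, -0.10 and -0.07. The difference between the lists was not tested.

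**Figure D5:**
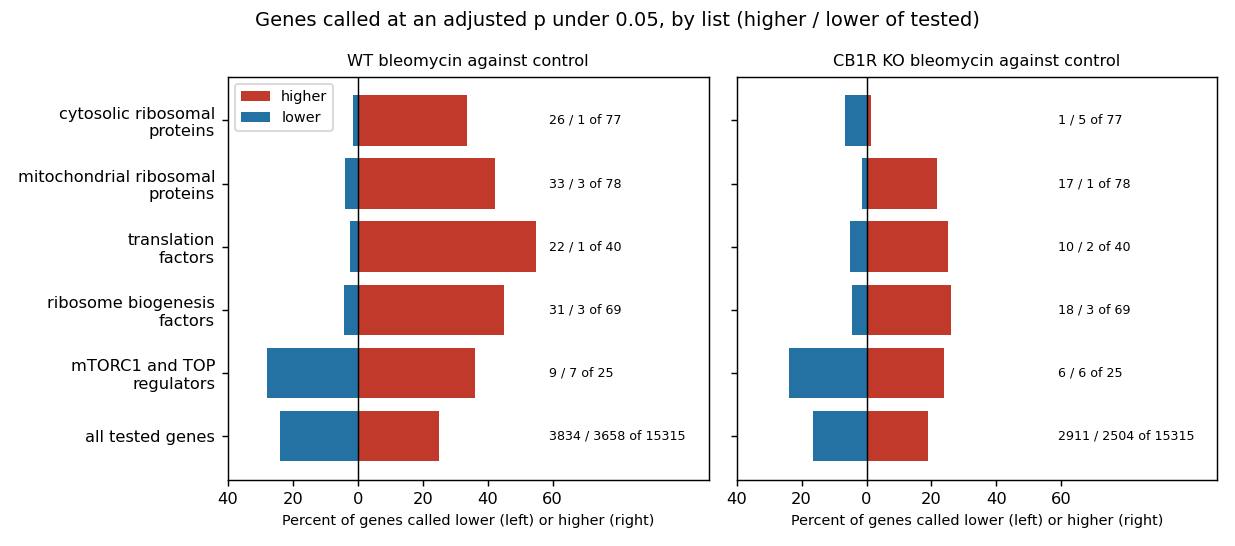
Percent of genes of each list called higher (red, right) or lower (blue, left) at an adjusted p under 0.05, with the counts beside each bar, for WT bleomycin and CB1R KO bleomycin against control. Of the cytosolic ribosomal proteins 26 were higher and 1 lower in WT bleomycin, and 1 higher and 5 lower in CB1R KO bleomycin, and of the mitochondrial ones 33 and 3, and 17 and 1.

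The regulators upstream were mixed. Over all tested genes 25.0% rose and 23.9% fell in WT bleomycin, and 19.0% and 16.3% in CB1R KO bleomycin, each against control. Of 25 genes of mTORC1 signalling and TOP mRNA binding, 9 rose and 7 fell in WT bleomycin (median 0.11). In CB1R KO bleomycin 6 rose and 6 fell (4 and 4 without CB1R KO 11). In WT bleomycin single genes moved as follows. Rragc and Rragd, GTPases that bring mTORC1 to the lysosome, rose by 0.30 (0.06, adjusted p = 0.000559) and 0.44 (0.11, adjusted p = 0.00344). The inhibitors Tsc2 and Sesn1 fell by 0.53 (0.05, adjusted p = 2.43e-06) and 0.80 (0.09, adjusted p = 4.03e-06) on the log2 scale, and so did Eif4ebp2, which blocks cap-dependent initiation, by 0.44 (0.05, adjusted p = 4.48e-06). Of 8 genes of the p53 checkpoint, 7 rose and 1 fell in WT bleomycin (median 1.19) and 6 rose in CB1R KO bleomycin (1.08, and 6 again without CB1R KO 11). Ccng1, a p53 target, rose by 1.36 (0.06, adjusted p = 1.3e-08), Phlda3 by 1.30 (0.08, adjusted p = 6.9e-08) and Zmat3 by 1.07 (0.07, adjusted p = 9.55e-08), and Mdm4, which holds p53 down, fell by 0.27 on the log2 scale (0.08, adjusted p = 0.0118).

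Cell type markers moved with the same groups. Their counts stand beside the 25.0% of all tested genes that rose and the 23.9% that fell in WT bleomycin against control. All 10 proliferation markers rose in WT bleomycin, their summed level going from 128 to 161 CPM in control to 380 to 548, and it was 275 to 595 in CB1R KO. Of 17 macrophage and monocyte markers 11 rose (1152 to 2515 CPM in control, 3707 to 4458 in WT bleomycin, 3217 to 4221 in CB1R KO). Markers of T and NK cells fell in 10 of 15 (235 to 330 CPM in control, 143 to 209 in WT bleomycin, 203 to 220 in CB1R KO), of B and plasma cells in 8 of 10 tested, with 1 higher, of endothelial cells in 10 of 11, of type II cells in 6 of 10, with 1 higher, and of red blood cells in 5 of 6. Of fibroblast markers 6 of 12 rose and 3 fell, of type I cells 1 of 8 rose and 4 fell, and neutrophil, airway and adipocyte markers fell in 5 of 6 tested, 4 of 8 and 3 of 6 tested. In CB1R KO against WT bleomycin, 3 type II, 2 T and NK, 1 fibroblast and 1 endothelial marker were called higher and none lower. Without CB1R KO 11 none of these markers was called in that comparison. The part of cell composition in the levels of the 77 genes was not tested.

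Among themselves the 77 genes moved together across libraries. Over the 12 libraries without CB1R KO 11, the median Pearson r of log2 CPM over the 2926 pairs of genes was 0.76 and 97.8% of pairs were above 0. With CB1R KO 11 the median was 0.55 and 83.4% were above 0. The points share library, group and scaling, and no such value was computed for other genes. The values are a description and do not show a trait particular to the 77 genes. WT bleomycin 4-B2 held the highest of the 13 values in 42 genes (12.4% of all tested genes) and CB1R KO 8 the lowest in 30 (4.37% of all tested genes). In WT bleomycin 4-B2, 13.1% of all tested genes had their lowest value, and 0 of the 77. The median SD of log2 CPM within groups was 0.12, and 7 genes exceeded 0.25: Rps16, Rpl10, Rpl31, Rpl5, Rpsa, Rpl12 and Rps23, which apart from Rpl12 are the 6 lowest genes of CB1R KO 11 against the rest of its group.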

How the data were processed

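Lung mRNA of the 13 libraries, each taken as 1 mouse, was selected with oligo(dT), which keeps polyadenylated RNA. It was made into NEBNext Ultra II libraries, which do not mark strand, and sequenced as read pairs on an Illumina HiSeq. The authors quantified reads with kallisto on the Ensembl mouse reference (GRCm39 in the submitters' notes), kept protein-coding transcripts and deposited estimated counts and TPM values summed per gene. Of the deposited count values 70.2% were off a whole number by over 1e-06. In the TPM table, 1 column matched no sample and was not used. Estimated counts were rounded and tested with edgeR 4.0.16 (R 4.3.3): filterByExpr, TMM, 1 coefficient per group, quasi-likelihood test, Benjamini-Hochberg over 15315 genes, threshold 0.05. Log2 CPM used a prior count of 2. Standard errors are the fold change over the root of F. DESeq2 1.42.0 and limma 3.58.1 (on log2 TPM) were alternatives of the test. Tables and plots were made in Python 3.11.15 (matplotlib 3.10.9, numpy 2.4.6, pandas 2.3.3). Nothing states that mice came from separate cages or litters, so p-values measure the spread between these mice.

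The members and lists were chosen with earlier results of these data known. Named genes were, for each comparison, the 5 called members of lowest p that rose and the 5 that fell, the 3 with the highest and lowest median TPM, all relatives kept apart, members of known special roles, Fau and Rack1, and of each list of pathway genes 2 per direction and comparison with the lowest p. Rps9, Rps16, Rpl31, Rps23, Rps21 and Eef1a1 were named after their values were seen. Rps23rg1 was set apart as a retrogene by its symbol. Marker lists gave counts only. No list was tested. A gene named by the rule is not reported here. Sequence sharing used GENCODE M21 transcripts (GRCm38) and start windows are RefSeq's (GRCm38.p6). On simulated counts of 15315 genes for WT bleomycin against control, 2 of 50 genes changed by 0.25 (log2), 28 of 50 by 0.5, 48 of 50 by 1 and 50 of 50 by 2 were called with the right sign, with 6 false calls.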

Additional observations from a re-analysis of the deposited data

Results flagged for a closer look

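Within groups, 114 sets of values were examined, of named genes and of measures of whole libraries. In 6 of them a single library lay farther from its group than Dixon's criterion allows at 95%, where chance alone gives about 1 in 20 groups. Total counts are not among the 6, although CB1R KO 11 held 53463884 estimated counts beside 14615904 to 16662580 in the other 12 libraries. Rpl10 was at 80.51 CPM in CB1R KO 11, beside 216 to 224 in the other CB1R KO libraries. Rps27rt, the retrogene that shares sequence with Rps27, was at 0.0 CPM in WT bleomycin 5 and at 9.567 in CB1R KO 10. Rack1 was at 515.3 CPM in CB1R KO 10, Rps27a at 238.6 in control 26 and Rpl22l1 at 33.3 in control 24; these last 2 are small differences within tight control groups.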

How the results depend on the processing

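Of the members, 26 rose and 1 fell in WT bleomycin against control (25.0% and 23.9% of all genes). The number that fell was 2 with RLE or upper-quartile factors, with TMM factors computed without the members, with DESeq2, with edgeR on 2 groups, with title style as a term and without WT bleomycin 4-B2 and 7, and 0 with limma on log2 TPM (pseudocount 1 or 0.1) and among the 43 members sharing under 50% of their sequence. The number that rose was 7 with lower-case titles only (19.7% of all genes rose). It was 10 without WT bleomycin 4-B2 and 7 (3255 of 15383 genes) and 10 among those 43 members (25.0% of all genes). In each of these settings a smaller share of members than of all genes rose. The last 2 of these settings were chosen after seeing the data. Leaving out 1 library gave 18 to 33 risen and 0 to 2 fallen. In the fits with 18 and 33 risen, 3422 of 15421 genes and 26.1% of all genes rose. In CB1R KO against WT bleomycin, 0 were called, and 14 lower with DESeq2 (1.88% of all genes). When 1 library was left out, 0 to 13 were lower (2.53% of all genes in the fit with 13). In CB1R KO bleomycin against control, 1 rose and 5 fell (19.0% and 16.3% of all genes). The number that rose was 2 with at least 10 counts in every library, with library totals only, with DESeq2 and with title style as a term, 4 with limma and 0 with lower-case titles only and among the 43 members. The number that fell was 3 with no count filter, at least 10 counts, edgeR on 2 groups, title style as a term, lower-case titles only and CB1R KO 11 thinned, and 2 with limma and among the 43 members. Leaving out 1 library gave 0 to 4 risen and 3 to 5 fallen. The cause of these differences was not tested. In WT bleomycin against control the median log2 fold change of the members was 0.13. It ran from 0.06 without WT bleomycin 4-B2 and 7 to 0.16 without WT bleomycin 2, and was 0.07 with lower-case titles only. In CB1R KO against WT bleomycin the median of -0.18 ran from -0.21 without WT bleomycin 4 to -0.11 with lower-case titles only. In CB1R KO bleomycin against control the median of -0.03 ran from -0.05 with upper-quartile factors to 0.02 with limma. Of the values of 35 named genes under 27 alternatives, 0 calls changed direction in any comparison. In the order of the comparisons above, 50, 0 and 67 values lost their call and 34, 14 and 11 gained one. Fitted values of genes that were not called could change sign. Rpl5 ran from -0.18 to 0.13 in WT bleomycin against control, and Rpl22l1 from -0.12 to 0.17 in CB1R KO against WT bleomycin. No paired analysis was possible because the groups share no replicate numbers. In the simulation a change of 0.25 on the log2 scale was rarely called, and most members' fold changes are smaller. The simulation changed far fewer genes than were called in the data, which makes the adjusted threshold stricter. Its genes were drawn from all levels above a low limit. In WT bleomycin against control the median standard error was 0.08 in the members and 0.11 over all genes. Its recovery therefore does not give the power for the members.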
